A study of Mus musculus with 2 samples.

Results

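Antioxidant, glutathione and NRF2 target genes were examined in mouse embryonic fibroblasts (MEFs, connective tissue cells grown from embryos) with and without the kinase LATS2. The members were taken by name. They were all genes on the array named as glutathione S-transferases (Gst followed by a class letter and a number), glutathione peroxidases (Gpx), peroxiredoxins (Prdx) or superoxide dismutases (Sod), together with Nqo1, Hmox1, Gclc, Gclm, Gsr, Txn1, Txnrd1, Srxn1, Cat, Pir, Sepp1, Nfe2l2 and Keap1. The rule used no measured value, though the members were chosen with earlier results of these data known. It found 49 of the 27745 gene names on the array, with 70 of its 41174 probes. A value could be computed for 48 of the 49 genes.

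NRF2 (gene Nfe2l2) is a transcription factor that is held in the cytoplasm and sent to degradation by its adaptor KEAP1. Oxidants and electrophiles that react with KEAP1 let NRF2 accumulate, enter the nucleus and bind antioxidant response elements together with small MAF proteins. Its known targets make glutathione, the main thiol of the cell, recycle glutathione and thioredoxin, conjugate glutathione to foreign compounds and break down haem and quinones. Superoxide dismutases, catalase, peroxiredoxins and glutathione peroxidases remove superoxide and peroxides, and several of these enzymes depend on selenium.

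MEFs from untreated C57BL/6J mice of the genotypes LATS2-/- (KO) and LATS2+/+ (WT) were compared, and the labels also spell the gene LAT2. Total RNA of both was labelled with Cy5 or Cy3 and hybridised as a pair to 2 arrays, with KO in Cy5 on the first and in Cy3 on the second. The labels give no number of mice, embryos or cultures, no passage, and no second preparation of either RNA. The arrays were therefore taken as a technical dye swap and counted as 1 replicate, so no test between genotypes was possible and every value below compares the RNAs that were hybridised. MEFs are a mixed population, and in such bulk RNA fewer cells of a type cannot be told apart from less RNA per cell.

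The check of the targeted gene did not bear out its label and could not settle it. Of 4 Lats2 probes, all well above background in both RNAs, 3 read higher in the RNA labelled KO (mean log2 ratios 0.56, 0.56 and 0.63) and 1 lower (-0.35). The 3 lie close together (mm8 chr14:56644080-56645305), 2 of them overlapping, and the lower probe lies apart at chr14:56676512-56676571. Which of them lie in the deleted part of the gene is not given in the sources used here, so directions below are those of the RNA labelled KO against the RNA labelled WT. Of 10 fibroblast markers, 9 passed the scanner software's flag for well above background on both arrays in the RNA labelled KO and 10 in the other. Their summed normalised signal was 121914 and 117008 in the RNA labelled KO against 139739 and 143030. In mean log2 ratio Vim, Col1a1, Col3a1, Thy1, Pdgfra and Dcn read from -0.89 to -0.25, and Fn1 read 0.90. Col1a2, Lum and Pdgfrb read from -0.10 to 0.16. For macrophages 4 of 10 markers passed the flag in each RNA, with summed signals of 2040 and 2019 against 1536 and 1529. Ptprc and Emr1 did not pass. The 4 macrophage markers did not move together, since Lyzs read 1.105 and Cd14 -1.05 in mean log2 ratio, both past 2-fold on each array, and Cd68 read 0.14 and Csf1r -0.05. For epithelium 3 of 8 passed, with sums of 884 and 830 against 610 and 592, in which Krt19 read 2.12 higher on the log2 scale, and Cdh1 and Tacstd1 did not pass. Endothelial markers passed for 0 of 7 genes, hepatocyte markers for 1 of 7, neural markers for 2 of 7 and muscle markers for 1 of 6. The part of these marker differences in the results was not tested.

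More members read higher than lower in the RNA labelled KO, and a few differed strongly. A gene was called when the log2 ratio of its brightest probe, KO over WT, was at least 1 in size (2-fold) on both arrays, with 1 sign, and the probe was well above background both times in the RNA where it was higher. By that rule 5 of the 48 members were called higher (Sepp1, Pir, Gsto2, Gsta4 and Gstm1) and 1 was called lower (Gpx7). Among all 27579 gene names with a value, 1.7% were called higher and 1.49% lower, against 10.4% and 2.08% of the members. Because the members were chosen with earlier results of these data known, these shares describe the list and test nothing. The SD of the mean of both arrays was 0.0942 in log2, from the differences between arrays over 40875 probes. A mean ratio over 2 times that SD (0.188), with the same sign on both arrays and the same demand on background, is called past the spread between arrays below. It was reached by 21 members in the higher and 9 in the lower direction, 43.8% and 18.8% of the 48, where 15.9% and 16.5% of all gene names reached it.

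This spread covers hybridisation and dye error only. With median centring in place of loess 3 members were called higher, and 5 were past the spread higher and 1 lower, and with Feature Extraction's own ratio 2 were past it lower. The array with KO in Cy5 alone would have called 8 members higher. Among the 15877 gene names that were well above background for 1 RNA or both, the shares were 2.95% called higher, 2.59% called lower, 27.7% past the spread higher and 28.7% lower. Among the 40 such members they were 12.5%, 2.5%, 52.5% and 22.5%. The median log2 ratio of the 48 members was 0.10, against -0.00 for all gene names. Of the 40 members well above background for 1 RNA or both, the other 10 did not pass the spread, and 8 members (Gsta2, Gstm6, Gstt2, Gstt4, Gpx3, Gpx5, Gpx6 and Sod3) were well above background on both arrays for neither RNA. The remaining gene, Gpx1, which encodes the main cytosolic glutathione peroxidase, was left out because its single probe was flagged as non-uniform in both channels on both arrays. With the flags ignored it read -0.12 and -0.43, with a mean of -0.27.

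**Figure D1:**
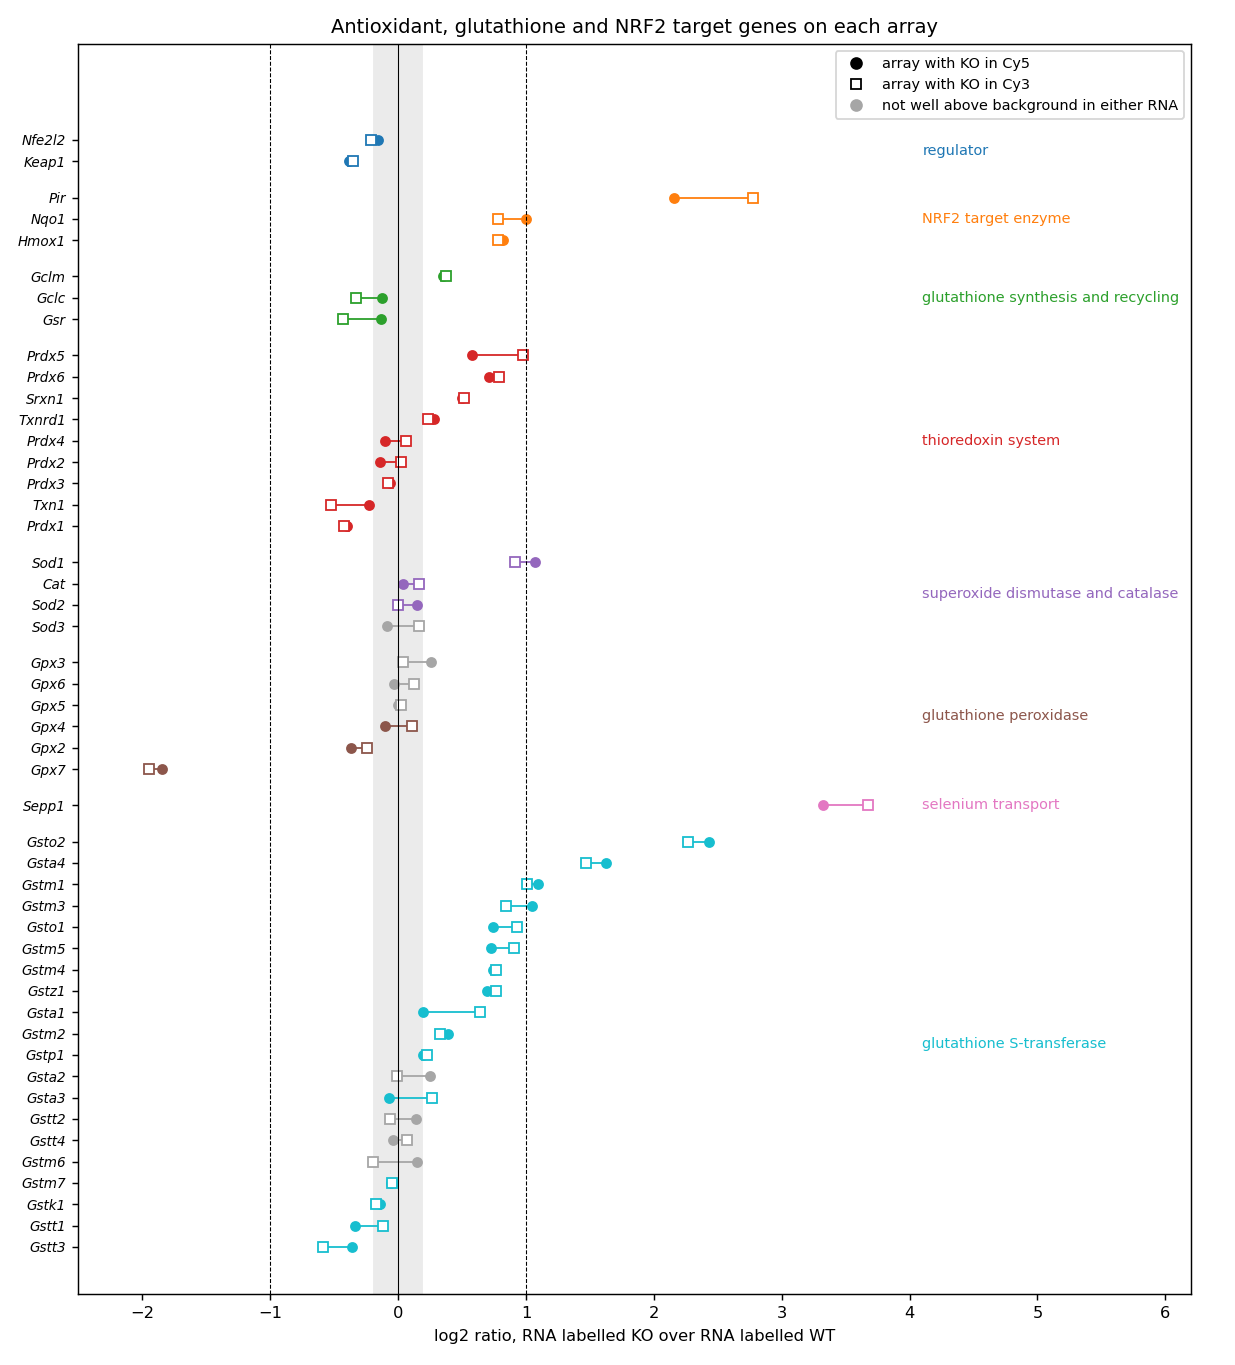
Log2 ratio of the RNA labelled KO over the RNA labelled WT (x axis) for the 48 members with a value, grouped by role; filled circles are the array with KO in Cy5, open squares the array with KO in Cy3, grey marks genes well above background for neither RNA. The grey band is 2 times the SD of the mean of both arrays (0.188) and the dashed lines are 2-fold; Sepp1, Pir, Gsto2, Gsta4 and Gstm1 lie right of the right line on both arrays, and Gpx7 left of the left line.

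Both arrays gave similar ratios for the members. Across the 48 genes, which are not independent replicates, Pearson's r between the arrays was 0.972, against 0.910 over all gene names. The SD of a single member between arrays was 0.148, against 0.133 for a single probe over all probes. By that SD the members agreed no more closely than all probes did. Of the same 40 members, 35 had the same sign on both arrays. None of their probes was saturated.

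**Figure D2:**
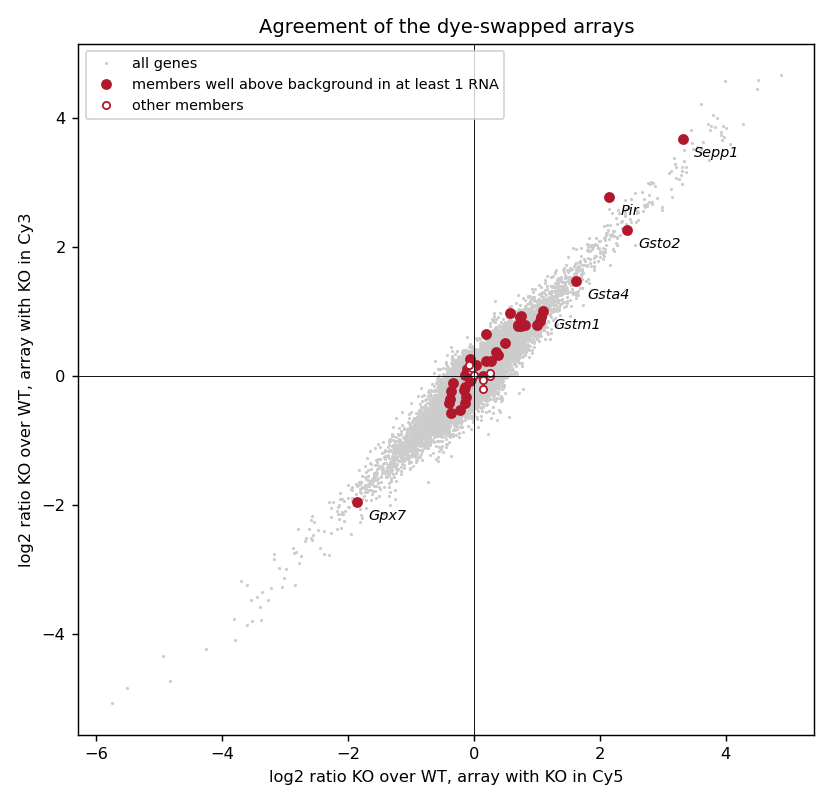
Log2 ratio of KO over WT on the array with KO in Cy5 (x axis) and on the array with KO in Cy3 (y axis) for all genes (grey) and for the members (red, open where well above background for neither RNA). The 6 called members are named and lie along the diagonal, Sepp1 at 3.32 and 3.67 and Gpx7 at -1.85 and -1.95.

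Promoters were searched for the core letters of the antioxidant response element, since NRF2 acts there. The motif TGACNNNGC was sought on both strands in RefSeq promoters (250 bases before to 50 after the start, build GRCm38.p6), which were at hand for 42 of the 49 genes. It occurred in 10 of their 57 promoters (17.5%), those of Gclm, Gsta3, Gstm5, Gstm7, Nfe2l2, Pir, Prdx1, Sod1, Srxn1 and Txnrd1. The share was 12.4% among all 32851 promoters given by RefSeq for this build. The letters overlap those of the AP-1 site TGACTCA, which was contained in a match of Pir and in that of Prdx1. The 10 genes with a match had a median log2 ratio of 0.31, with 6 past the spread higher and 1 lower. The 31 measured genes without one had a median of 0.07, with 12 higher and 6 lower. All 10 with a match were well above background for 1 RNA or both, but of the 31 Gsta2, Gstm6, Gstt4, Gpx3, Gpx5 and Gpx6 were not. By the rule these cannot pass the spread, so the groups are not like for like. Among all gene names well above background 27.7% passed it higher and 28.7% lower. A match is a description of the letters and no evidence that a factor binds.

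The promoters of 4 of these genes are printed because they carry the motif in genes that went in different directions: Pir (chrX:164269181-164269480), Sod1 (chr16:90220512-90220811), Gclm (chr3:122245307-122245606) and Prdx1 (chr4:116685349-116685648), all GRCm38.p6, plus strand, 5' to 3', with the matches in capitals.
Pir: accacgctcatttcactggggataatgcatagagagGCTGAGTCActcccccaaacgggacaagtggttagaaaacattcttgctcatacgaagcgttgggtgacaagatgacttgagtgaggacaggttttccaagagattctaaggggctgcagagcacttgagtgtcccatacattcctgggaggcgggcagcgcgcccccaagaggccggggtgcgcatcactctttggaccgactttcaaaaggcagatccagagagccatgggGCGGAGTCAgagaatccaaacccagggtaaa
Sod1: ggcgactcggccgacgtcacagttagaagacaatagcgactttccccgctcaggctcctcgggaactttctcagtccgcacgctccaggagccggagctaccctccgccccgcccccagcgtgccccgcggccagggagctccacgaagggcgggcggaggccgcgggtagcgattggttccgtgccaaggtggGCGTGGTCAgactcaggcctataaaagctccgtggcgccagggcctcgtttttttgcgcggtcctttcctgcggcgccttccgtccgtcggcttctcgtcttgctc
Gclm: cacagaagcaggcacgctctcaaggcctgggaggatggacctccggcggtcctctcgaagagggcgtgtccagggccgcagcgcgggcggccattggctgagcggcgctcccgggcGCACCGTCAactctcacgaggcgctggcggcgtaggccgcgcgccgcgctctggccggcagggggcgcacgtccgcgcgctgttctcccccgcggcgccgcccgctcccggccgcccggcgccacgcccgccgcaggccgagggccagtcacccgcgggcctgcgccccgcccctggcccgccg
Prdx1: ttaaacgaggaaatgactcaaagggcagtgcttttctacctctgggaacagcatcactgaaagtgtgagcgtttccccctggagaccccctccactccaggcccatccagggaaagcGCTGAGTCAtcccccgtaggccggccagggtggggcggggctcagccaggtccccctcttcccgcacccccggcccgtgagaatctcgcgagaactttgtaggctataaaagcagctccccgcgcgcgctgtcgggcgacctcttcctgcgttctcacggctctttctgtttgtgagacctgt
All capitals here are matches on the opposite strand to the gene. Pir held 2 matches, which begin 214 bases before and 19 after the start site, and those of Prdx1, Gclm and Sod1 begin 133, 134 and 56 bases before it. The first match of Pir and the match of Prdx1 have the same 9 letters, GCTGAGTCA, and the genes read 2.47 and -0.41 in mean log2 ratio.

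The regulators themselves differed little. Nfe2l2 read -0.16 and -0.21 on the arrays with KO in Cy5 and in Cy3, and its mean of -0.19 was within the spread between arrays. A second Nfe2l2 probe nearby gave -0.20. Another, dimmer probe (mm8 chr2:75492729-75492788), also well above background in both RNAs, gave 0.78 and 0.66, so the mean over the 3 probes was 0.11 and of the opposite sign. No direction can be given for Nfe2l2. Keap1 read -0.39 and -0.36, with signals of 3471 and 3480 in the RNA labelled KO against 4533 and 4452, and was past the spread in the lower direction.

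The 3 genes grouped here as NRF2 target enzymes, Pir, Nqo1 and Hmox1, were all higher in the RNA labelled KO. Known NRF2 targets under other headings did not all follow. Gclm read 0.36 in mean log2 ratio, but Gclc read -0.23 and Gsr -0.28. Pir encodes pirin, an iron-binding nuclear protein whose gene responds to NRF2. Its signal (mm8 chrX:159716596-159716655) was 411 and 353 in the RNA labelled KO against 92.3 and 51.4 in the RNA labelled WT, where the probe did not stand well above background. The log2 ratios were 2.15 and 2.78, and the level was at least 5.12-fold higher in the mean of both arrays. The bound compares it with the higher, on each array, of its own signal and the lowest signal of any probe well above background. A second Pir probe (mm8 chrX:159653104-159653163) was well above background for neither RNA and read -0.05.

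Nqo1, the quinone reductase most used as a readout of NRF2, had signals of 777 and 710 against 388 and 413. Its log2 ratios were 1.004 and 0.78, so it reached 2-fold on the first array only and was not called. Hmox1, which breaks down haem to biliverdin, iron and carbon monoxide, had signals of 8367 and 8299 against 4750 and 4819. Its ratios of 0.82 and 0.78 correspond to 1.74-fold. For each of these 3 genes both arrays gave the same direction, as they did for 35 of the 40 members well above background for 1 RNA or both.

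Glutathione synthesis and recycling were split. Gclm, the modifier subunit of glutamate-cysteine ligase, read 0.35 and 0.37 and was past the spread in the higher direction (387 and 347 against 303 and 268). Gclc, the catalytic subunit of the same enzyme, read -0.13 and -0.33 and was past it in the lower direction (1529 and 1427 against 1672 and 1793). Gsr, glutathione reductase, read -0.13 and -0.43 and was lower as well, and its other probes gave -0.15 and -0.34. All 3 were well under 2-fold, and the means of Gclc and Gsr rest mostly on the array with KO in Cy3.

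**Figure D3:**
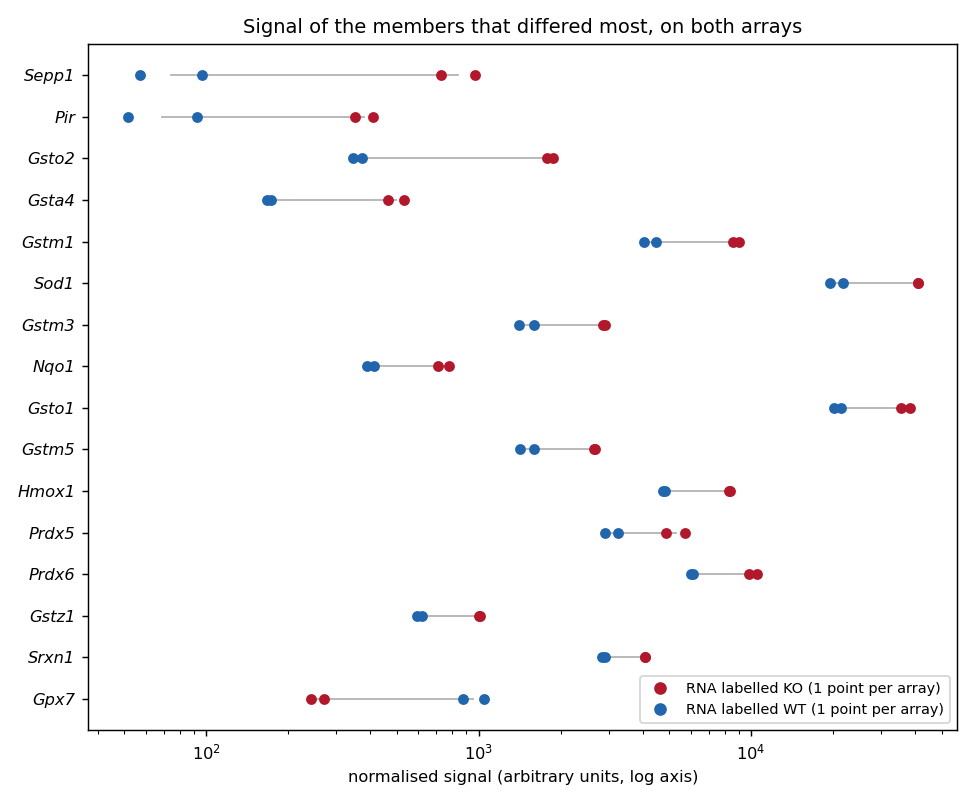
Normalised signal in arbitrary units (log axis) of the 16 members that were called, or that read at least 0.5 in mean log2 ratio and were well above background in both RNAs; each RNA has 1 point per array and the line joins their geometric means. The points of the RNA labelled KO lie right of those of the RNA labelled WT in 15 genes and left of them in Gpx7 (243 and 270 against 876 and 1042); levels of different genes come from different probes and cannot be compared.

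Of the 9 genes of the thioredoxin system 4 were past the spread higher (44.4%), 2 lower (22.2%) and 3 within it, and 0 were called. All 9 were well above background for 1 RNA or both, and 27.7% and 28.7% of all such gene names were past it. Prdx5, a peroxiredoxin of mitochondria and peroxisomes, read 0.58 and 0.98. Prdx6, which reduces phospholipid hydroperoxides, read 0.71 and 0.79 (9818 and 10535 against 6005 and 6109). Its other probes gave 0.70, 0.37 and, not well above background, 0.14, and the 0.70 comes from a probe that also lists the near copy Prdx6b.

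Srxn1, sulfiredoxin, which repairs overoxidised peroxiredoxins, read 0.50 and 0.52, while its 2 dimmer probes gave 0.20 and 0.19. Txnrd1, cytosolic thioredoxin reductase, read 0.28 and 0.23. In the other direction, Txn1, the cytosolic thioredoxin that Txnrd1 reduces, read -0.23 and -0.53 (17462 and 15723 against 20413 and 22638), and Prdx1 read -0.40 and -0.42. Thus Txnrd1 and Srxn1 were higher while Txn1 and Prdx1, which they serve, were lower, by 1.19-, 1.42-, 1.30- and 1.33-fold. Prdx2, Prdx3 and Prdx4 read between -0.07 and -0.02 and were within the spread.

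Among superoxide dismutases and catalase only Sod1 passed the spread. Sod1, the cytosolic copper-zinc enzyme, had signals of 40873 and 40965 in the RNA labelled KO against 19435 and 21787. Its log2 ratios were 1.07 and 0.91, so it missed the call on the second array at 1.99-fold in the mean. Its 2 other probes were dim and gave 0.49, well above background in both RNAs, and 0.21, which was not. Sod2, the mitochondrial manganese enzyme, read 0.15 and -0.00, and Cat, catalase, 0.03 and 0.17, with neither past the spread.

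The selenium carrier Sepp1 was called higher and the peroxidase Gpx7 lower. Sepp1 (selenoprotein P, now Selenop) is a secreted protein that carries selenium to tissues. Its probe (mm8 chr15:3230418-3230477) gave signals of 966 and 727 in the RNA labelled KO against 96.4 and 56.9, the latter without standing well above background. The log2 ratios were 3.32 and 3.67, and the level was at least 11.03-fold higher in the mean of both arrays. Gpx7, a glutathione peroxidase of the endoplasmic reticulum that lacks selenium, read -1.85 and -1.95, which is 3.73-fold lower (mm8 chr4:107898630-107898689), with signals of 243 and 270 against 876 and 1042. Gpx2, the gastrointestinal form, read -0.37 and -0.24 close to background. Gpx4, which reduces lipid hydroperoxides, read -0.11 and 0.10.

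The glutathione S-transferases held 20 of the members. Of these, 3 were called higher (15%) and 0 lower, against 1.7% and 1.49% of all gene names. Past the spread were 11 higher (55%) and 2 lower (10%), against 15.9% and 16.5% of all gene names. Of the 16 well above background for 1 RNA or both these were 68.75% and 12.5%, against 27.7% and 28.7% of such gene names. Gsto2 and Gsto1 are omega-class enzymes, which reduce dehydroascorbate. Gsto2 had signals of 1872 and 1789 against 346 and 372 (mm8 chr19:47939411-47939470). Its ratios were 2.43 and 2.27, a 5.10-fold difference. A second Gsto2 probe (mm8 chr19:47923026-47923533) gave 0.27, without being well above background for the WT label, so the probes disagreed by 2.08 on the log2 scale. Gsto1 read 0.74 and 0.93 (35635 and 38370 against 21305 and 20150).

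Gsta4, the alpha-class enzyme that conjugates 4-hydroxynonenal, a product of lipid peroxidation, had signals of 533 and 464 against 173 and 167. It read 1.63 and 1.47, which is 2.92-fold. Gsta1 read 0.20 and 0.64, at least 1.32-fold higher in the mean of both arrays. Its probe and the Gsta2 probe each list both genes, so their signals may be shared. Gsta3 read -0.07 and 0.27 and was within the spread.

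Of the 7 mu-class genes, 5 were past the spread higher (71.4%, against 15.9% of all gene names), and the median was 0.75. Of the 6 well above background for 1 RNA or both that was 83.3%, against 27.7% of such gene names. Gstm1, an abundant detoxifying enzyme of this class, had signals of 8615 and 9038 against 4043 and 4484 and read 1.09 and 1.01 (2.07-fold), with 0.89 on a second probe. Gstm3 read 1.05 and 0.84, Gstm5 0.73 and 0.91, and Gstm2 0.39 and 0.33. Gstm4 read 0.74 and 0.77 but the WT signal was not well above background, which sets it at least 1.69-fold higher in the mean. Gstm7 read -0.05 on each array. Transcripts of this class are close in sequence, and cross-hybridisation between them was not tested.

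The mu-class genes lie together on chromosome 3 within 143 kb of mm8, in the order Gstm5, Gstm7, Gstm6, Gstm3, Gstm2, Gstm1 and Gstm4, so the genes past the spread flanked others that were not. The 4 theta-class genes lie within 58.3 kb of chromosome 10, and the 2 well above background went the other way. Gstt3 read -0.36 and -0.58 and Gstt1 -0.34 and -0.12, both past the spread lower, and Gstt4 and Gstt2 were not well above background. The signals of Gstt1 were close to background, at 103 and 120 against 130 and 130. Gstz1, which also isomerises maleylacetoacetate in tyrosine breakdown, read 0.70 and 0.77. Gstp1, the pi-class enzyme, read 0.20 and 0.23, with 0.46 on a second probe; the brighter probe also lists Gstp2. Gstk1 read -0.16 in the mean, within the spread.

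**Figure D4:**
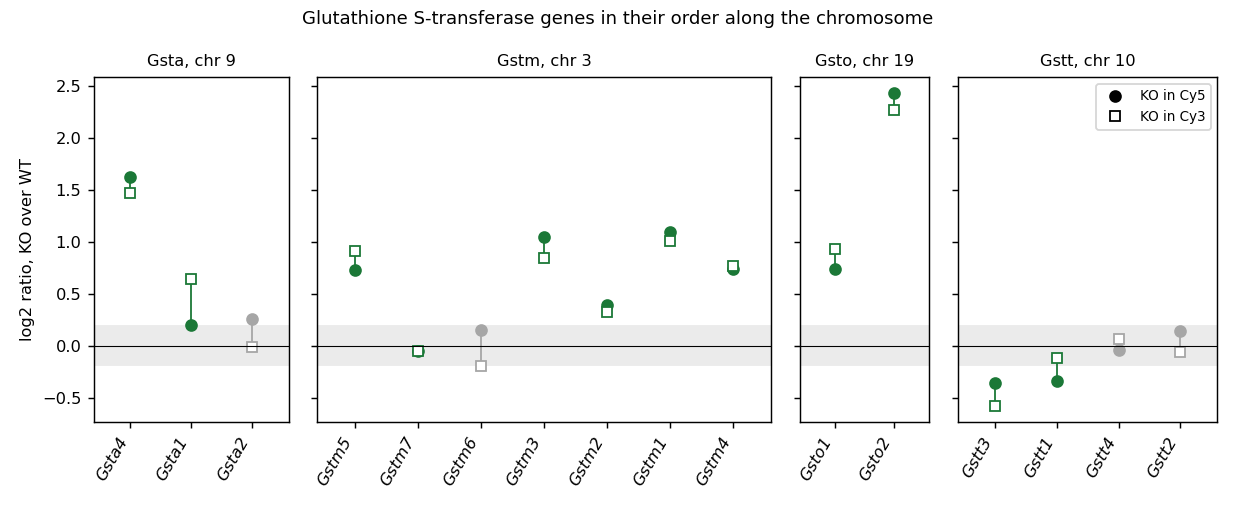
Log2 ratio of KO over WT (y axis) for glutathione S-transferase genes that lie together, placed in their order along each chromosome but not to distance; filled circles are the array with KO in Cy5, open squares KO in Cy3, grey genes were well above background for neither RNA, and the band is 0.188 either side of 0. The mu-class genes on chromosome 3 run up to 1.09 with Gstm7 at -0.05 among them, both omega-class genes on chromosome 19 are above the band, and Gstt3 and Gstt1 on chromosome 10 have negative ratios.

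Other genes of the same pathways were read from a list of 119, written with earlier results of these data known. Of the 119, 111 had a value. Of these, 10 were called higher (9.01%) and 4 lower (3.60%), where 1.7% and 1.49% of all gene names were. Past the spread were 38 higher (34.2%) and 30 lower (27.0%), against 15.9% and 16.5% of all gene names. Of the 93 well above background for 1 RNA or both they were 40.9% and 32.3%, against 27.7% and 28.7%. The median log2 ratio was 0.04. Several are partners of the members described above. Lrp2 (megalin), an uptake receptor for selenoprotein P in kidney, read 2.50 and 2.38. Lrp8, another selenoprotein P receptor, named here after its values were seen, read -0.39 and -0.52 and was past the spread lower. Maff, a small MAF partner of NRF2, read 1.217 and 1.1003, as the 1 gene called of 13 NRF2 relatives, partners and adaptors (7.69%, against 1.7% of all gene names). Of the 13, all well above background, 5 were past the spread higher (38.5%: Maff, Mafk, Bach1, Bach2 and Sqstm1). Gsk3b and Rbx1 were past it lower (15.4%). Among all gene names well above background the shares were 27.7% and 28.7%. Txnip, which binds and inhibits thioredoxin, read 1.44 and 1.33.

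Of 22 other detoxification enzymes and efflux pumps with a value 3 were called higher (13.6%) and 0 lower, against 1.7% and 1.49% of all gene names. Past the spread were 6 higher and 7 lower, 37.5% and 43.8% of the 16 well above background. Among all gene names well above background 27.7% and 28.7% were. The median log2 ratio of the 22 was 0.0004, so the group had no common direction. Cbr1 and Cbr3, carbonyl reductases, read 2.07 and 1.86, and 1.30 and 1.33, and Aox1, an aldehyde oxidase, 1.79 and 2.05. Among those past the spread lower, picked after their values were seen, were Ephx2, an epoxide hydrolase, at -1.04 in the mean and the aldo-keto reductases Akr1b8, Akr1c18 and Akr1b3 at -0.96, -0.91 and -0.37. Also called higher was Hebp1, a haem-binding protein, at 1.22 and 1.28. So were 3 of 14 sources of reactive oxygen (21.4%, against 1.7% of all gene names). The 3 were Maoa, monoamine oxidase A, at 1.71 and 1.66, and Cyba, the p22phox subunit of NADPH oxidases, at 1.36 and 1.51, with Duoxa1. Duoxa1, a maturation factor of dual oxidase, read 1.35 and 1.02.

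Lower were Nox4, an NADPH oxidase catalytic subunit that works with p22phox, at -1.156 and -1.104, and Chac1, which degrades glutathione, at -1.15 and -1.20. The metallothioneins Mt2 and Mt1, small cysteine-rich proteins that bind zinc, were lower at -1.66 and -1.77, and at -1.02 and -1.24. Of the 13 glutathione precursor, synthesis and turnover genes with a value, 4 were past the spread higher and 3 lower. Chac1 was the single one called. These were 30.8% and 23.1% of the 13, against 15.9% and 16.5% of all gene names. Of the 8 well above background they were 50% and 37.5%, against 27.7% and 28.7% of such gene names. Of the 7 genes of NADPH supply, all well above background, 2 were past the spread higher (28.6%) and 4 lower (57.1%). Among gene names well above background the shares were 27.7% and 28.7%. Of these 7 genes 0 were called.

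**Figure D5:**
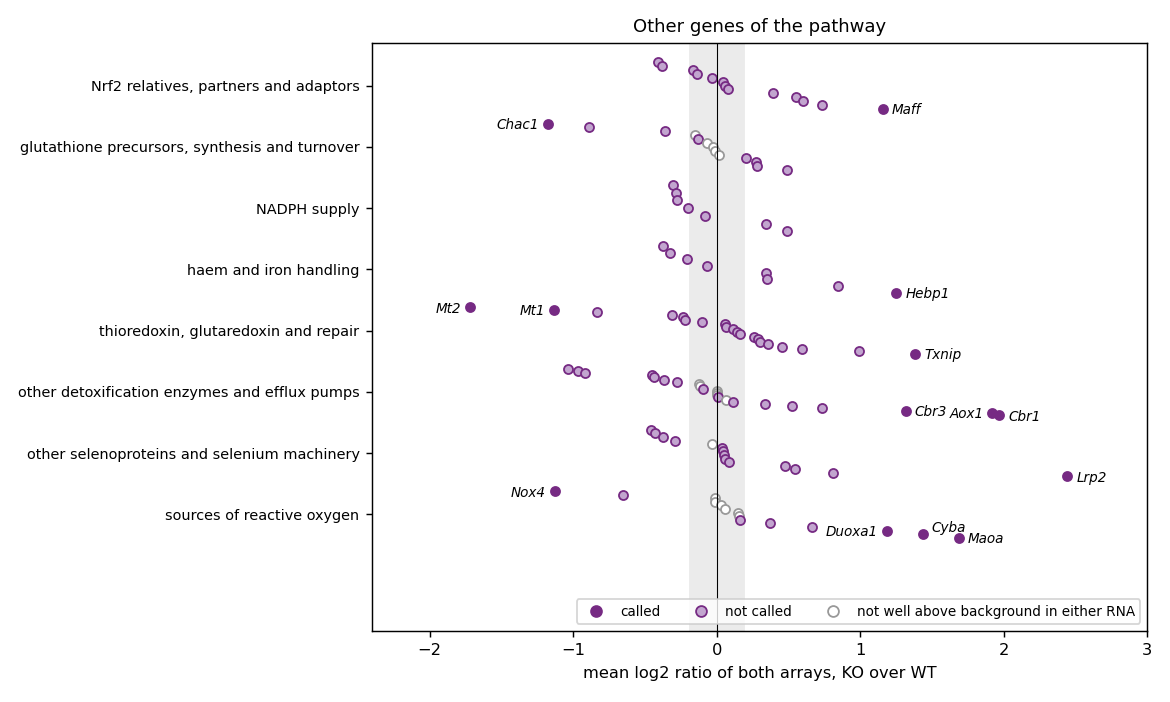
Mean log2 ratio of both arrays, KO over WT (x axis), for the 111 other pathway genes with a value, in 8 groups; dark points were called and named, pale points were not, open points were well above background for neither RNA, and the band is 0.188 either side of 0. Points are offset vertically within a group for legibility only; Lrp2 lies furthest right at 2.44 and Mt2 furthest left at -1.72.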

How the data were processed

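The arrays (Agilent G4122F) were quantified with Agilent Feature Extraction 10.5.1.1 (submitters' processing notes), and per the file headers the authors deposited each spot's mean signal and local background as intensity in arbitrary units, with that program's log10 ratio of Cy5 over Cy3. Their deposited value table holds log2 ratios, which matched KO over WT from the processed signals with both arrays turned the same way.

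For the values given here, limma 3.58.1 (R 4.3.3) corrected the background by normexp with an offset of 50, and signals were normalised by loess within each array, control spots having weight 0 (1639 of 45018 per array). Flagged spots (390 and 378) were left out, spots of a probe averaged, and the sign of the swapped array turned. The offset pulls ratios of dim probes towards 0. Median mean signals were 96.8 and 98.5 in Cy5 and 60.1 and 58.2 in Cy3, over backgrounds of 30 to 36. The number of arrays limits the precision. Signals come from channel values after loess and Aquantile scaling. The brightest probe stood for a gene, and "well above background" is Feature Extraction's flag, required in 0.5 or more of a probe's spots.

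Values on each array are given for every member called, for members of at least 0.5 in mean log2 ratio and well above background in both RNAs, for the regulators and the single genes of the rule, and for called pathway genes. Other members are given by family, and probes over 1 log2 unit from a gene's brightest are named. The members and lists were chosen with earlier results of these data known. Probe coordinates are those of the array files (mm8), and 62 of the 70 member probes matched a RefSeq table by accession. The t-test of the study's methods was run only as an alternative, since 2 technical arrays measure hybridisation error. The methods give it for knockout MEFs and do not say that it was applied to these 2 arrays. Other alternatives were Feature Extraction's ratio, the deposited log2 table, median centring, offset 10, no background subtraction, the mean over probes, genes above background only, each array alone and limma's test. Tables were handled in Python 3.11.15 with pandas 2.3.3 and numpy 2.4.6, and plots drawn with matplotlib 3.10.9.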

Additional observations from a re-analysis of the deposited data

How the results depend on the processing

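No paired analysis was possible because the labels name no separate preparations of either RNA, and the 2 dye-swapped arrays were taken as 1 replicate. Of 291 recomputed values 236 kept their direction and size or count within the limits set, 55 moved and 0 were reversed. Sepp1, Pir and Gsto2 were called higher, and Gpx7 lower, under every normalisation and background alternative. With Feature Extraction's own ratio, and likewise with the deposited log2 table, 16 pathway genes were called higher and 7 lower, 2 members were past the spread lower, and Gsta1 and Gstm4 joined the called members. With the spread recomputed for each setting, median centring left 3 members called higher, with Gsta4 and Gstm1 lost, 4 pathway genes higher and 0 lower, and 5 members past the spread higher and 1 lower. An offset of 10 gave 7 pathway genes called lower and 4 members past the spread lower. Over all gene names, calls went from 469 higher and 411 lower to 941 and 866 with Feature Extraction's ratio and to 252 and 139 with median centring, and no scaling moved the median of all genes by over 0.1.

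On each array alone, 5 to 8 members were called higher and 1 to 1 lower, 10 to 11 pathway genes higher and 5 to 6 lower, 19 to 20 members were past the spread higher and 6 to 7 lower, and the members' median was 0.145 to 0.149. The 3 members added with KO in Cy5 alone were Gstm3, Nqo1 and Sod1. limma's test with 2-fold called the same 5 members higher and 1 lower, and 10 pathway genes higher and 5 lower. The methods' t-test on 2 arrays called 4 members higher, without Pir, and 1 lower, and 9 pathway genes higher and 3 lower, at the methods' unadjusted threshold, and 0 members and 0 pathway genes in either direction after Benjamini-Hochberg adjustment. Of 216 single-gene values 37 moved and 1 changed sign, Nfe2l2 with the mean over its probes (0.11). With Feature Extraction's ratio the log2 ratio of Sepp1 was 6.23 and that of Pir 5.93, both against a WT signal not well above background. The mean over probes, which averages in dimmer probes, gave 1.31 for Gsto2 and 1.21 for Pir and ended the call of Gstm1. The value of Gpx1 with its flags ignored was added after seeing the data. Low signal over background limits the 8 members that were well above it for neither RNA. The causes were not tested.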
